A study of Rattus norvegicus with 12 samples.

Results

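The progression of the silicotic lesion was followed by comparing the lungs of rats 28 days after silica with the lungs of rats 14 days after silica. The 6 arrays compared, of 12 in the series, were those whose labels give 50 mg/kg silica, 3 on day 28 and 3 on day 14. The other 6 arrays were of saline lungs, 3 on each day. All rats were male Wistar rats, and each array held the lung RNA of 1 rat. Silica rats had received 1 mL of silicon dioxide at 50 mg/mL into the trachea, and saline rats 1 mL of saline. The labels give no age, and the methods describe only rats killed on day 28, of which 3 lungs a group were picked for the arrays on their histology. For the day 14 arrays the titles and time points say 14 days, while a treatment text shared by all arrays says 28 days, and the titles were followed.

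Silicosis begins when inhaled crystalline silica is taken up by alveolar macrophages, which cannot digest it. The particles damage lysosomes, and dying macrophages release cytokines, proteases and oxidants together with the particles, which are taken up again. Recruited macrophages and fibroblasts then build nodules in which matrix is laid down and remodelled while the surrounding alveoli are lost. Whole lung RNA reads all of these cells together, so that fewer cells of a type and less RNA per cell cannot be told apart.

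The values are log2 intensities of array probes, quantile normalized over the 12 arrays, so that a difference of 1 is a 2-fold difference. Calls needed a limma p, adjusted over all tested probes by Benjamini-Hochberg, no higher than 0.05, and a fold change of at least 2. Of 31970 probes tested, 953 were called, which is 2.98%. Of these, 148 were higher on day 28 (0.463%) and 805 were lower (2.52%). The median difference over all tested probes was 0.05, and 55.3% of the differences were above 0. By the adjusted p alone, 5.73% were higher and 6.68% lower. The count fell to 341 without silica day 14 replicate 3, to 415 without silica day 28 replicate 3 and to 554 without silica day 28 replicate 2, and without silica day 14 replicate 1 the higher probes numbered 309 and the lower ones 629.

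Day and slide coincided in the silica lungs. The 3 silica day 28 arrays lay on slide 1 and the 3 silica day 14 arrays on slide 2, and the only other array on slide 1 was saline day 28 replicate 1. Slide 1 arrays detected fewer probes well above background, 60.5% to 63.3%, than slide 2 arrays, 64.6% to 69.5%. With slide as a block, a fit in which saline day 28 replicate 1 alone carries the slide difference, 3 probes were called (0.00938%), none of them among the 953. At probes A_43_P17734 and A_64_P120050 the silica difference without the block was only 0.29 and 0.01. Saline day 28 replicate 1 read 9.59 and 8.24 there, against at most 6.82 and 5.13 in the other saline arrays. The remaining probe was a second probe of Fam111a, described below. The median standard error of the day difference was 0.18 without the block and 0.29 with it. In the saline lungs, limma called 0 probes between day 28 and day 14 over all 6 arrays (3183 at an unadjusted p of at most 0.05), and 2 probes (0.00626%) between saline day 28 replicates 2 and 3 and the 3 saline day 14 arrays, all on slide 2. The day difference in silica lung itself differed from that in saline lung at 1 probe (0.00313%, limma).

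Each probe was therefore set against saline day 28 replicate 1. A probe was marked when that array lay outside the range of the other 5 saline arrays, on the side of the silica difference. Its distance from their mean also had to be at least 0.5 times the silica difference. Of the 805 probes called lower, 439 were marked (54.5%), against 32.1% of all tested probes. Of the 148 called higher, 28 were marked (18.9%). The distance needed scales with the silica difference, which was at least 2-fold in called probes and could be smaller in the others. The 32.1% was thus reached at a laxer threshold and is not a like background. The falls and the rises also differed in how the slide block moved them. The median of the falls went from -1.27 to -0.63 and 106 of them changed sign, while the median of the rises went from 1.22 to 1.14 and 2 changed sign. Of the falls, 219 were not well above background on any silica day 28 array, and of the rises, 12 were not so on any silica day 14 array.

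**Figure D1:**
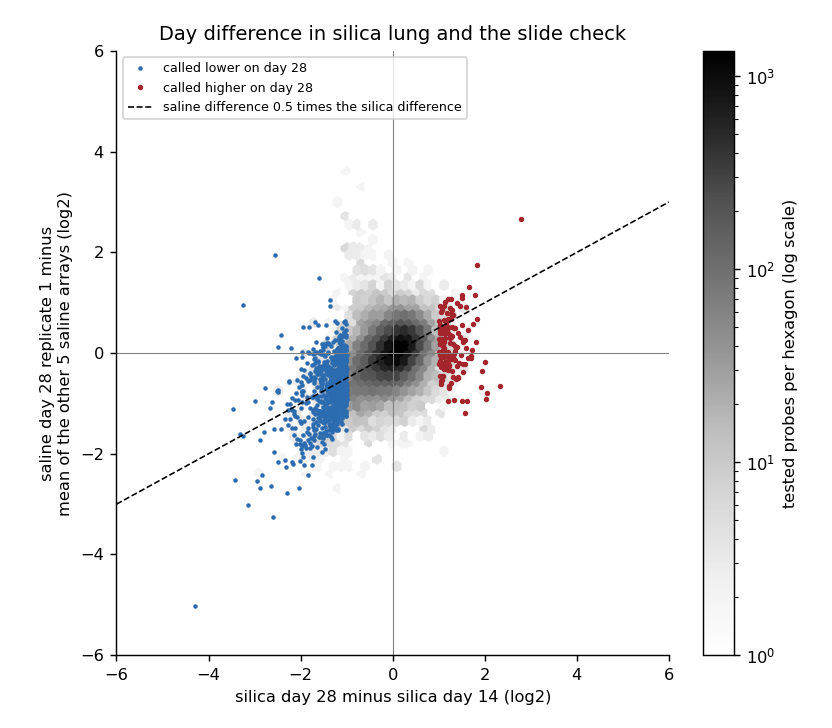
Day difference in silica lung (x axis, log2) against saline day 28 replicate 1 minus the mean of the other 5 saline arrays (y axis, log2), with all 31970 tested probes as grey hexagons and called probes as points. Most blue points (called lower) lie below 0 on the y axis, 723 of 805, while the red points (called higher) lie on both sides, 83 of 148 of them above 0.

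Gene names were known only for probes that the study had listed as different between silica and saline on day 28. The silica day 28 arrays thus took part in choosing which genes have a name, so that the counts of named genes describe this list and are not independent evidence of its direction. This choice also favours large silica minus saline differences on day 28, beside those on day 14, where no such choice was made. Of 947 named genes tested at their brightest probe, 22 were called higher and 22 lower (2.32% each). On day 28 against saline, 5.08% of all tested probes were called higher and 4.14% lower. Of the 22 rises, 21 were genes above saline on day 28, and of the 22 falls, 21 were genes below saline on day 28. All 22 rises and all 22 falls kept their sign with slide as a block, and 16 and 17 of them had an unadjusted p of at most 0.05 in that fit, but none passed the adjustment (lowest adjusted p 0.10, limma). For none of these genes did the day difference in silica lung differ from that in saline lung after adjustment (lowest adjusted p 0.13, limma). The slide check marked 1 of the rises and 4 of the falls.

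Among genes of the extracellular matrix and its turnover, proteins that build and digest the scaffold of the lung, 4 of 25 tested were called higher and 1 lower, against 0.463% and 2.52% of all tested probes and 2.32% each way of the named genes. These were Mmp9, Cpxm1, Timp1 and Vcan, and Mmp28. The median difference of the list was 0.26.

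Timp1, a secreted inhibitor of matrix metalloproteinases, rose 2.43-fold. Its 3 silica day 28 arrays read 12.01, 11.60 and 11.59, and its 3 silica day 14 arrays 10.70, 10.39 and 10.27. The groups did not overlap, and both lay above the 6 saline arrays, which read 9.50 to 10.10. The difference was 1.28 ± 0.18 (SE, n = 3 a group, adjusted p 0.0087 by limma). In saline day 28 replicate 1 Timp1 read 9.67, inside the range of the other saline arrays. Timp1 was called in all 12 fits that each left out 1 array, and the difference was 1.57 with slide as a block (adjusted p 0.17, limma).

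Cpxm1, a secreted protein of the metallocarboxypeptidase family, rose 3.25-fold. The silica day 28 arrays read 7.93, 7.51 and 7.49 and the silica day 14 arrays 6.84, 5.77 and 5.22, so that all day 28 lungs were higher and the day 14 lungs were more spread out. The saline arrays read 5.07 to 5.47, and the lowest silica day 14 lung lay among them. The difference was 1.70 ± 0.32 (SE, adjusted p 0.013 by limma), and silica and saline differed by 0.69 on day 14 (adjusted p 0.17) and by 2.28 on day 28 (adjusted p 6.0e-04). Cpxm1 was called in all 12 fits that each left out 1 array, and with normexp background correction the difference was 1.10.

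Mmp9, a gelatinase released by macrophages and neutrophils, showed the largest rise among the named genes that were well above background on all 6 silica arrays. It read 8.79, 8.66 and 9.35 on day 28 and 8.16, 5.98 and 6.82 on day 14. Silica day 14 replicate 1 lay close to the day 28 lungs and the other day 14 lungs well below them. The difference was 1.95 ± 0.55 (SE, adjusted p 0.043 by limma). The call rested on single arrays: it was lost in 8 of the 12 fits that each left out 1 array (adjusted p 0.054 to 0.13), those without any of the silica day 28 arrays, silica day 14 replicates 2 or 3, saline day 28 replicate 3 or saline day 14 replicates 1 or 3. The difference was 1.44 without silica day 14 replicate 2. Mmp9 in saline day 28 replicate 1, at 5.18, lay inside the range of the other saline arrays.

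Vcan, the large proteoglycan versican of provisional matrix, rose by 1.06 ± 0.24 (SE, adjusted p 0.022 by limma), from 7.31 ± 0.22 to 8.36 ± 0.40 (SD, n = 3), and was named after its values were seen. A second probe of Vcan differed by 0.67 and did not pass the test (adjusted p 0.42, limma). With normexp the Vcan difference was 0.92, short of 2-fold. Mmp28, the metalloproteinase epilysin, fell by 1.33 ± 0.32 (SE, adjusted p 0.026 by limma), with 7.40, 7.11 and 7.09 on day 28 and 8.72, 7.99 and 8.89 on day 14. Mmp28 was marked by the slide check: saline day 28 replicate 1 read 7.76, below the other saline arrays (8.54 to 9.14), and the difference was -0.20 with slide as a block. Its call was lost without silica day 28 replicates 2 or 3 or silica day 14 replicates 1 or 3 (adjusted p 0.057 to 0.10).

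**Figure D2:**
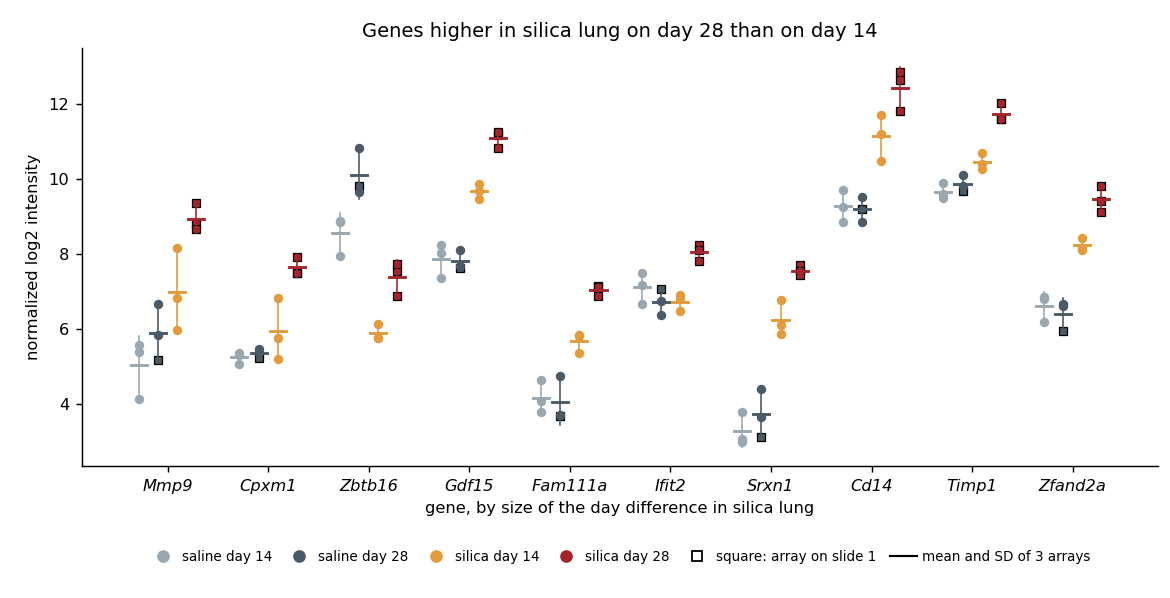
Normalized log2 intensity (y axis) of the 10 named genes with the largest rises among those called, well above background on all 6 silica arrays, without overlap between the silica groups and not marked by the slide check, with every array as a point, squares for arrays on slide 1, and the mean and SD of each group of 3. The separation of the silica groups follows from how the genes were chosen. In Zbtb16 both silica groups lie below the saline arrays.

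Cytokines and sensors of the innate immune system were next. Of 28 tested genes for chemokines, cytokines and their receptors, Gdf15 and Ccl24 were called higher and none lower (median difference 0.44), and of 21 for innate sensing, Mb21d1, Cd14 and Nfkbid were called higher and none lower (median 0.53), again against 0.463% higher among all tested probes and 2.32% among the named genes.

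Gdf15, a stress-induced cytokine of the transforming growth factor family, rose 2.65-fold. It read 11.17, 10.82 and 11.24 on day 28 and 9.87, 9.45 and 9.68 on day 14, against 7.37 to 8.24 in the 6 saline lungs. The 3 sets did not overlap. The difference was 1.41 ± 0.23 (SE, adjusted p 0.0099 by limma), and Gdf15 was called in all 12 fits that each left out 1 array. For Gdf15 saline day 28 replicate 1 read 7.63, inside the range of the other saline arrays.

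Ccl24, a chemokine for eosinophils, read 7.44, 7.77 and 6.76 on day 28 and 6.50, 6.13 and 6.02 on day 14. The difference was 1.10 ± 0.24 (SE, adjusted p 0.019 by limma). The call was lost without silica day 28 replicate 1 (adjusted p 0.053), silica day 28 replicate 2 (0.88, adjusted p 0.064) or silica day 14 replicate 3 (adjusted p 0.074). Silica and saline differed by 0.28 on day 14 and by 1.18 on day 28. In saline day 28 replicate 1 Ccl24 read 6.45, above the other saline arrays (5.81 to 6.11), and the Ccl24 difference was 0.65 with slide as a block and 0.77 with normexp.

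Mb21d1 encodes cGAS, the sensor that answers DNA in the cytosol. It read 5.90, 5.83 and 5.79 on day 28 and 3.91, 4.39 and 4.49 on day 14, where 2 of 3 arrays were well above background. The difference was 1.58 ± 0.32 (SE, adjusted p 0.016 by limma). On saline day 28 replicate 1 the value was 2.88, below the other saline arrays (3.59 to 4.46) and so on the opposite side from the silica difference. With slide as a block the difference was 2.82, with the lowest adjusted p of any named gene at its brightest probe (0.10, limma). Of the saline arrays, 2 of 3 on day 28 and 1 of 3 on day 14 were well above background. The larger difference with the block rested on 1 low value and does not show that the rise is free of slide. With normexp background correction the Mb21d1 difference was 0.60, short of 2-fold. Without silica day 28 replicate 2 or 3 the adjusted p was 0.051. Tmem173, which encodes STING, the adaptor that cGAS signals through, differed by -0.04 ± 0.13 (SE, adjusted p 0.86 by limma), and was above saline by 1.61 on day 14 and by 1.70 on day 28.

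Cd14, the co-receptor for lipopolysaccharide on macrophages, read 12.85, 11.80 and 12.63 on day 28 and 11.71, 11.20 and 10.48 on day 14. The lowest day 28 lung was only just above the highest day 14 lung. The difference was 1.30 ± 0.35 (SE, adjusted p 0.038 by limma), and the call was lost in 5 of 12 fits that each left out 1 array, those without silica day 28 replicates 1 or 3, silica day 14 replicates 2 or 3 or saline day 14 replicate 3 (adjusted p 0.054 to 0.14). Nfkbid, an atypical inhibitor protein of NF-kappa-B, differed by 1.19 ± 0.34 (SE, adjusted p 0.045 by limma) at a low intensity, and its call held in only 2 of those 12 fits, those without saline day 28 replicate 1 or silica day 14 replicate 2. For Cd14 the array saline day 28 replicate 1 lay inside the range of the other saline arrays, and for Nfkbid it lay below them, on the opposite side. With normexp the Nfkbid difference was 0.25.

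Cxcl10, a chemokine induced by interferon, read 6.31, 6.22 and 5.45 on day 28 and 5.62, 3.66 and 2.91 on day 14, so that the groups overlapped. The difference was 1.93 ± 0.68 (SE) and did not pass the test (adjusted p 0.083, limma). Cxcl9 read 11.74 in silica day 14 replicate 1 and between 8.15 and 9.18 in the other 5 silica lungs, a difference of -0.59 ± 0.74 (SE, adjusted p 0.64 by limma). Of 14 interferon response genes tested, Ifit2 was called higher and none lower, with a list median of 0.45.

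Ifit2, an interferon-induced protein that binds RNA, read 7.81, 8.24 and 8.11 on day 28 and 6.48, 6.81 and 6.91 on day 14. The saline lungs read 6.39 to 7.49, so that the silica day 14 lungs lay among them and the day 28 lungs above them. The difference was 1.32 ± 0.23 (SE, adjusted p 0.011 by limma), and Ifit2 was called in all 12 fits that each left out 1 array. Its value on saline day 28 replicate 1, 7.07, lay inside the range of the other saline arrays. With slide as a block the Ifit2 difference was 0.82 (adjusted p 0.35, limma) and with normexp 0.93, short of 2-fold. Usp18, a protease that removes ISG15 from proteins, rose by 0.90 ± 0.24 (SE, adjusted p 0.035 by limma), short of 2-fold.

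Srxn1, sulfiredoxin, which repairs overoxidized peroxiredoxins, was the only called gene among 18 of antioxidant defence and iron handling (list median 0.42). It read 7.70, 7.55 and 7.43 on day 28 and 6.79, 5.88 and 6.11 on day 14, against 3.01 to 4.41 in saline lungs. All 6 silica lungs were above all saline lungs, and the day 28 lungs were the highest. The difference was 1.30 ± 0.33 (SE, adjusted p 0.030 by limma), and the call was lost without any 1 of the silica day 28 arrays or without silica day 14 replicates 2 or 3 (adjusted p 0.073 to 0.10). The Srxn1 difference was 2.23 with slide as a block and 0.88 with normexp. Hmox1, heme oxygenase, differed by 0.81 ± 0.26 (SE, adjusted p 0.062 by limma), and Lcn2, lipocalin 2, by 0.45 ± 0.31 (SE, adjusted p 0.36 by limma).

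Zfand2a, a proteasome-associated protein induced by arsenite and heat, read 9.82, 9.41 and 9.12 on day 28 and 8.44, 8.09 and 8.15 on day 14, a difference of 1.23 ± 0.25 (SE, adjusted p 0.016 by limma), which was 1.94 with slide as a block. Its call was lost without silica day 14 replicate 3 (adjusted p 0.061). Fam111a, a nuclear protease that acts at replication forks, read 6.87, 7.14 and 7.13 on day 28 and 5.38, 5.83 and 5.84 on day 14, a difference of 1.37 ± 0.29 (SE, adjusted p 0.017 by limma), lost without silica day 28 replicates 2 or 3 or silica day 14 replicate 3 (adjusted p 0.054 to 0.059), and 0.79 with normexp. In both genes saline day 28 replicate 1 was the lowest saline array, on the opposite side from the silica difference. A second probe of Fam111a differed by 1.03 ± 0.33 (SE, adjusted p 0.062 by limma), and by 2.49 with slide as a block. No saline array was well above background at this second probe. Saline day 28 replicate 1 read 1.73 there, against a mean of 3.16 in the other 5 saline arrays. The larger difference with the block thus rested on 1 dim value and does not show that the rise is free of slide.

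Zbtb16, a zinc finger transcription factor, was the 1 called rise among genes that silica lowered against saline on day 28. It read 7.54, 6.89 and 7.74 on day 28 and 6.15, 5.77 and 5.76 on day 14, a difference of 1.50 ± 0.34 (SE, adjusted p 0.021 by limma), lost without silica day 28 replicates 1 or 3 or silica day 14 replicate 3 and with normexp (0.93). The saline lungs also differed between the days, with 9.80, 10.82 and 9.66 on day 28 and 8.88, 7.95 and 8.85 on day 14. The silica minus saline difference was -2.70 on day 28 and -2.67 on day 14, and the day difference in silica minus that in saline was -0.03 (adjusted p 0.99, limma).

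Genes of proliferation and DNA replication copy the genome and divide the cell. Of 52 tested, 5 were called higher and none lower, against 0.463% and 2.52% of all tested probes and 2.32% each way of the named genes. By the adjusted p alone 18 passed, all of them higher (5.73% of all tested probes did). Of the 52 differences, 51 were above 0 (55.3% of all tested probes), with a median of 0.56. In 39 of the 52 genes all day 28 lungs were above all day 14 lungs, as in 19.5% of all tested probes. All 52 had been listed by the study as different from saline on day 28, and all 52 were called above saline on that day here. High day 28 values thus took part in choosing these genes, while the tested probes as a whole were not chosen so. The counts of this list are therefore not independent evidence of a rise. On day 14, 21 of the 52 were called above saline (3.11% of all tested probes) and the median silica minus saline difference was 0.91, against 52 and 1.61 on day 28. The day 28 values were largely set by the listing, and day 14 had no such selection. The days are thus not compared on equal terms. The summed level of the list, as log2, was 13.07 to 13.26 in silica day 28 lungs, 12.55 to 12.82 in silica day 14 lungs and 11.28 to 11.92 in saline lungs.

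Mcm10, a factor that loads polymerase at replication origins, showed the largest difference of the list, with 5.79, 5.41 and 5.31 on day 28 and 4.15, 4.05 and 4.69 on day 14. The saline lungs read 2.37 to 3.84, with 1 of 6 arrays well above background. The difference was 1.21 ± 0.36 (SE, adjusted p 0.049 by limma), at the threshold, and the call held in only 3 of 12 fits that each left out 1 array, those without saline day 28 replicates 1 or 2 or saline day 14 replicate 1. With normexp the Mcm10 difference was 0.32.

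Bub1b, a kinase of the spindle assembly checkpoint, read 5.95, 6.11 and 5.71 on day 28 and 4.78, 4.92 and 4.63 on day 14. The 2 groups were well apart, and both lay above the saline lungs (3.28 to 3.96). The difference was 1.15 ± 0.20 (SE, adjusted p 0.010 by limma), and Bub1b was called in all 12 fits that each left out 1 array, but with normexp background correction the difference was 0.48, short of 2-fold. Ska1, which holds kinetochores to spindle microtubules, was not well above background on day 14 and was at least 2.08-fold higher on day 28 (adjusted p 0.040, limma), a bound taken from the dimmest signals above background on each array. The Ska1 call was lost without any 1 of the silica day 28 arrays or without silica day 14 replicates 2 or 3 (adjusted p 0.079 to 0.14), and with normexp its difference was 0.30.

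Orc1, the largest subunit of the origin recognition complex, differed by 1.04 ± 0.27 (SE, adjusted p 0.033 by limma), with 1 low day 14 lung at 3.47 against 4.55 and 4.71 in the others. With normexp the Orc1 difference was 0.34. Orc1 was named after its values were seen. The kinetochore gene Cenpf was the only member below 0, at -0.01 ± 0.19 (SE, adjusted p 0.98 by limma).

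For this list, saline day 28 replicate 1 lay mostly on the opposite side. In 28 of the 52 genes it was below all other saline arrays and in 4 above them, with a median difference of -0.44, and the slide check marked 1 gene, Mcm3, named here for that count. With slide as a block the median day difference of the list was 0.99, and 33 of 52 genes were higher and 1 lower at an unadjusted p of at most 0.05, against 7.64% and 7.6% of all tested probes. The choice of these genes by their day 28 values bears on these shares too. With normexp background correction the median was 0.30 and with the difference of the saline lungs subtracted it was 0.66.

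**Figure D3:**
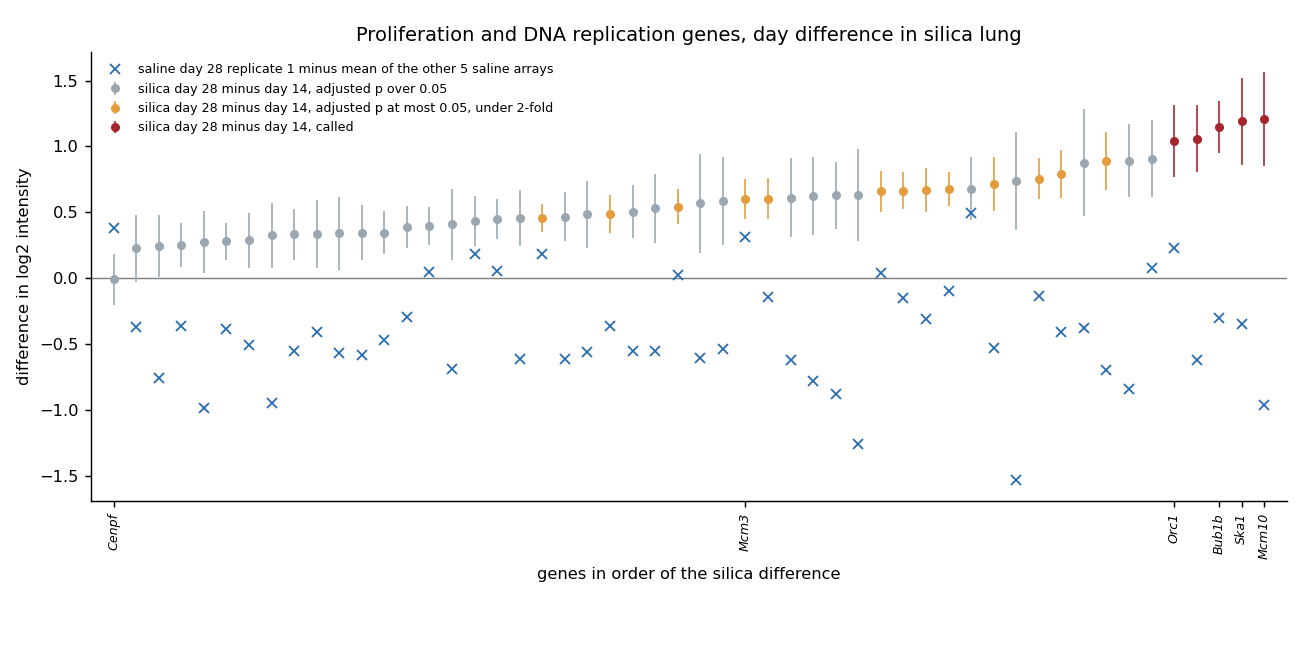
Day difference in silica lung for the 52 proliferation and DNA replication genes (points, with the SE), in order of size and with labels for the genes described in the text, and saline day 28 replicate 1 minus the mean of the other 5 saline arrays for the same genes (crosses), all in log2 units. The points lie above 0 for 51 genes, and most crosses lie below 0, with a median of -0.44.

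The sequences upstream of Mcm10 and Bub1b are shown because both rose with the list and because promoters of cell cycle genes are known for CCAAT boxes, E2F sites and the CHR element. They come from RefSeq for the rat build GRCr8 and are given 5′ to 3′ on the strand of the gene, both on the plus strand, with capitals for matches to CCAAT, to TTTGGCGG (an E2F site) and to TTTGAA (the CHR element).
Mcm10, chr17:78175227-78175396, from 160 bases before the start to 10 bases after it: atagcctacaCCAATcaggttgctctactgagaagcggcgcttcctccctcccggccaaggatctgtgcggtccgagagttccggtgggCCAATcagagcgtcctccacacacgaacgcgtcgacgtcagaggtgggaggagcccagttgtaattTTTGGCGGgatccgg
Bub1b, chr3:126016967-126017076, from 100 bases before the start to 10 bases after it: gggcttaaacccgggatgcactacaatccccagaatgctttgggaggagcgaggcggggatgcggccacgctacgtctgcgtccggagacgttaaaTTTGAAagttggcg

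In Mcm10 the CCAAT matches began 150 and 71 bases before the start and the TTTGGCGG match 5 bases before it, and in Bub1b the TTTGAA match began 4 bases before the start. Searched on both strands over each whole promoter entry, all of 1 length, CCAAT was present in 37.5% of 33469 RefSeq rat promoters, TTTGAA in 18.3% and TTTGGCGG in 0.466%. Of the 39 promoters found for the 52 genes, 28 held CCAAT, 23 TTTGAA and 1 TTTGGCGG. No entry was found for Orc1, Mmp9 or Ifit2. A match describes the letters only.

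The remaining lists held few calls. None of 30 lysosome and phagosome genes was called, 5 passed the adjusted p alone, all of them higher, and the median was 0.31. The largest was Scpep1 (0.65 ± 0.16, adjusted p 0.025 by limma), which the slide check marked. Also among them were Grn, progranulin (0.58 ± 0.13, adjusted p 0.021 by limma), and Atp6v0c, a subunit of the proton pump that acidifies lysosomes (0.61 ± 0.11, adjusted p 0.011 by limma). Npc2, which exports cholesterol from lysosomes, differed by -0.49 ± 0.17 (SE) and did not pass the test (adjusted p 0.081, limma), and was marked by the slide check. None of 7 glycolysis genes was called, and Pkm (0.76 ± 0.11, adjusted p 0.0089) and Gapdh (0.60 ± 0.12, adjusted p 0.015) passed the adjusted p alone in limma.

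Of 13 genes of cholesterol and lipid uptake, Lpl was called. Lpl, lipoprotein lipase, read 8.70, 8.60 and 8.93 on day 28 and 7.92, 7.28 and 7.74 on day 14, a difference of 1.09 ± 0.18 (SE, adjusted p 0.010 by limma). On day 14 its silica lungs lay near the saline lungs (difference 0.19, adjusted p 0.54) and on day 28 above them (1.07, adjusted p 0.0018, both by limma). Without silica day 14 replicate 2 the Lpl day difference was 0.91 and with normexp 0.90, short of 2-fold. None of 24 complement and coagulation genes was called (median 0.17), and C4b, a complement component, rose by 0.77 ± 0.20 (SE, adjusted p 0.031 by limma), short of 2-fold.

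**Figure D4:**
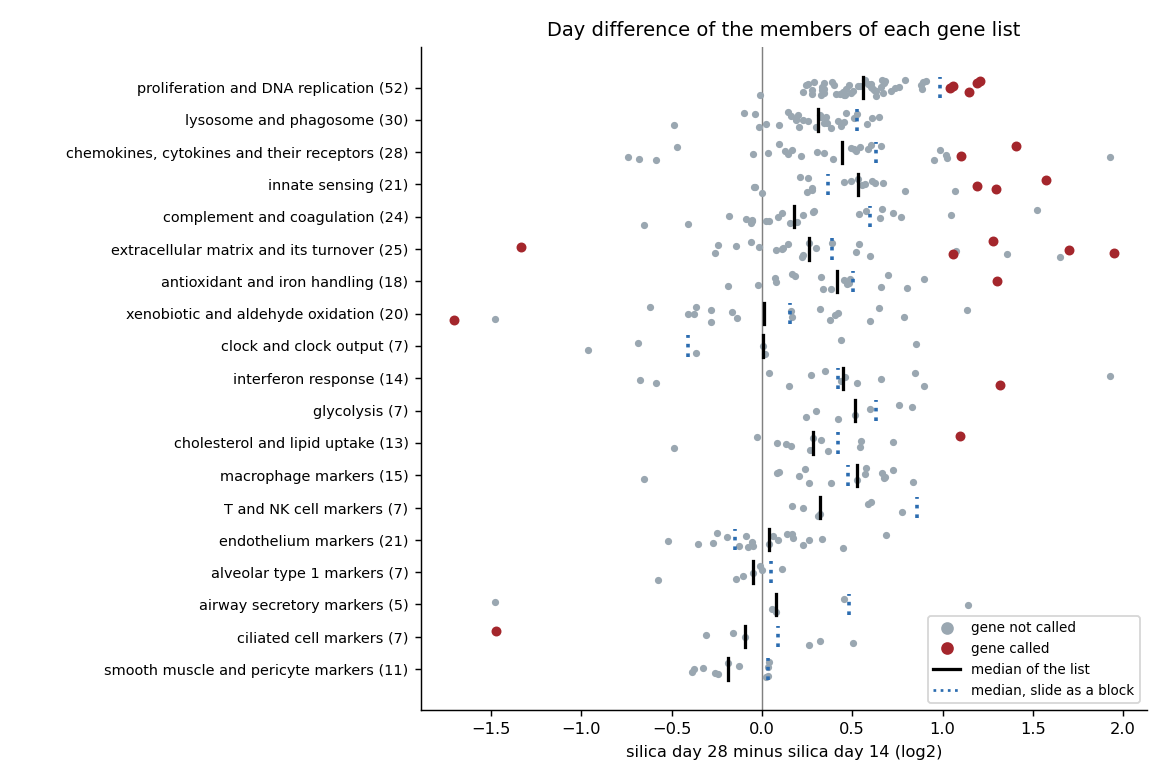
Day difference in silica lung (x axis, log2) for the tested members of each list with at least 5 of them (number in brackets), with called genes in red, the median of the list as a black bar and the median with slide as a block as a dotted bar. The proliferation list has its median at 0.56 and 0.99, and the medians of the endothelium and alveolar type 1 marker lists lie near 0.

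Markers of the cell types that a lung holds were also read. Of 15 macrophage markers none was called, 1 passed the adjusted p alone (Spi1, the transcription factor PU.1, 0.68 ± 0.15, adjusted p 0.021 by limma), and the median was 0.53. Their summed level, as log2, was 15.45 to 15.67 in silica day 28 lungs and 14.80 to 15.48 in silica day 14 lungs, which overlap, against 12.29 to 12.80 in saline lungs. C1qa, a complement gene made by macrophages, differed by -0.65 ± 0.28 (SE, adjusted p 0.14 by limma), and the scavenger receptor Msr1 by 0.73 ± 0.44 (SE, adjusted p 0.30 by limma). The part of cell numbers in the rises above was not tested.

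None of 21 endothelium markers, 7 alveolar type 1 markers, 11 smooth muscle and pericyte markers, 4 neutrophil markers, 7 T and NK cell markers or 3 B and plasma cell markers was called, nor was any of 5 airway secretory, 3 erythroid or 3 mast cell markers. The medians were 0.04 for endothelium and -0.05 for alveolar type 1 cells, whose silica minus saline differences had medians of -1.32 and -1.33 on day 14 and -1.49 and -1.75 on day 28. The summed level of the endothelium markers was 14.79 to 15.75 on day 28 and 14.56 to 15.71 on day 14 in silica lungs. None of the alveolar type 2 markers on the list had a name here. Of the markers listed, 4 of 11 for neutrophils, 7 of 15 for T and NK cells and 3 of 10 for B and plasma cells were named and tested. These cell types were thus read only in part. Icos, a receptor of activated T cells, rose by 0.77 ± 0.22 (SE, adjusted p 0.042 by limma), short of 2-fold.

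None of the 7 genes of the clock and its outputs was called, and Dbp passed the adjusted p alone. Dbp, a transcription factor that follows the daily clock, fell by 0.97 ± 0.27 (SE, adjusted p 0.039 by limma), with 9.20, 9.56 and 9.36 on day 28 and 10.73, 9.84 and 10.45 on day 14. Per3, a clock repressor, differed by -0.69 ± 0.21 (SE, adjusted p 0.053 by limma). Saline day 28 replicate 1 was the highest saline array for Dbp, on the opposite side from the silica difference.

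Of the 22 named falls, 16 were also lower in saline day 28 than in saline day 14 lungs, with a median of -0.31 in saline. None of the 22 was called below saline on day 14 (2.33% of all tested probes were). Of the 22, 7 were not well above background on any silica day 28 array, so that their folds are bounds, which ran from at least 1.12-fold to at least 2.39-fold lower.

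Ces2a, a carboxylesterase that hydrolyses drugs and lipids, fell 3.26-fold and was the only called gene among 20 of xenobiotic and aldehyde oxidation (list median 0.01). It read 6.66, 6.79 and 6.65 on day 28 and 8.13, 8.15 and 8.92 on day 14. The day 28 lungs were tightly grouped and lay below all saline lungs, which read 7.79 to 9.36, while the day 14 lungs lay among them. The difference was -1.70 ± 0.29 (SE, adjusted p 0.010 by limma), the same to 2 decimals with slide as a block, and Ces2a was called in all 12 fits that each left out 1 array. The saline lungs differed between the days by -0.83 (adjusted p 0.44, limma), and the highest of all 12 arrays was saline day 14 replicate 2. The day difference in silica minus that in saline was -0.87 (adjusted p 0.49, limma). Cyp2f4, a cytochrome P450 of airway secretory cells, differed by -1.48 ± 0.63 (SE) and did not pass the test (adjusted p 0.14, limma).

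Kcnk2, the potassium channel TREK-1, fell 2.80-fold. It read 6.96, 6.23 and 6.94 on day 28 and 7.86, 8.38 and 8.35 on day 14, against 7.65 to 8.29 in saline lungs. Only the silica day 28 lungs stood apart, below all others. The difference was -1.49 ± 0.23 (SE, adjusted p 0.0090 by limma) and Kcnk2 was called in all 12 fits that each left out 1 array. Saline day 28 replicate 1 read 7.65, the lowest of the saline lungs, and with slide as a block the difference was -0.89.

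Pgc, pepsinogen C, which in the lung is made by alveolar type 2 cells, read 8.55, 7.54 and 8.62 on day 28 and 9.74, 9.36 and 9.88 on day 14. The saline lungs read 9.26 to 10.00, the range of the silica day 14 lungs. The difference was -1.42 ± 0.28 (SE, adjusted p 0.014 by limma), and without silica day 14 replicate 3 the adjusted p was 0.057. The array saline day 28 replicate 1 read 9.31 for Pgc, inside the range of the other saline arrays. Suv39h2, a histone H3 lysine methyltransferase, read 5.80, 5.29 and 5.96 on day 28 and 7.40, 6.41 and 6.87 on day 14, a difference of -1.21 ± 0.28 (SE, adjusted p 0.023 by limma), lost without silica day 28 replicates 2 or 3 or silica day 14 replicates 1 or 3 (adjusted p 0.051 to 0.083) and with normexp (-0.62).

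Of the 10 largest called falls that were well above background on all 6 silica arrays, without overlap and not marked, the other 6 were Vps37d, a subunit of the endosomal sorting complex ESCRT-I, the germ cell protease Pcsk4, the olfactory receptors Olr233 and Olr232, the postsynaptic scaffold Shank1 and the muscarinic receptor Chrm4. Their differences ran from -1.71 for Vps37d to -1.35 for Chrm4 and their adjusted p from 0.013 to 0.049 (limma). In each of the 6 the highest of all 12 arrays was saline day 14 replicate 2, and the silica minus saline difference on day 14 ran from -0.59 to -0.40 and did not pass the test (adjusted p 0.29 to 0.50, limma). The day difference in silica minus that in saline was -0.57 to -0.65 in these genes (adjusted p 0.68 to 0.75, limma). They were called in 4 to 11 of the 12 fits that each left out 1 array, and in none of them without silica day 14 replicate 3. With normexp Chrm4 was the 1 of these 6 that lost the call (-0.91). In all 6, saline day 28 replicate 1 lay inside the range of the other saline arrays.

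Olr233 and Olr232 are members of a large gene family, and whether their probes read both was not tested. Olr233 read 7.08, 7.47 and 7.49 on day 28 and 8.70, 8.94 and 9.43 on day 14. Olr232 read 6.92, 7.40 and 7.30 on day 28 and 8.50, 8.66 and 9.22 on day 14. The 2 genes followed each other in every silica lung.

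**Figure D5:**
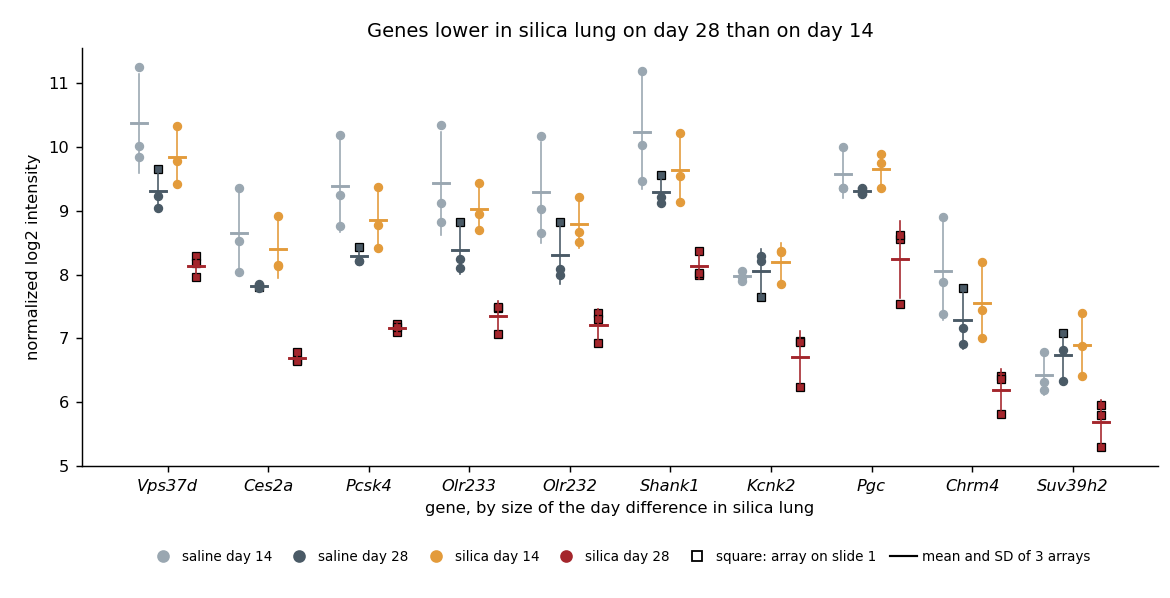
Normalized log2 intensity (y axis) of the 10 named genes with the largest falls among those called, well above background on all 6 silica arrays, without overlap between the silica groups and not marked by the slide check, drawn as for the rises. The separation of the silica groups follows from how the genes were chosen. In all 10 genes the silica day 14 arrays lie within or near the range of the saline arrays.

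Beside Mmp28, 3 more genes were marked by the slide check and named by the same rule. Rsph1, a radial spoke protein of cilia, was the only called gene among 7 ciliated cell markers (list median -0.09). It read 7.29, 6.97 and 6.67 on day 28 and 8.23, 8.78 and 8.33 on day 14, a difference of -1.47 ± 0.27 (SE, adjusted p 0.013 by limma). Saline day 28 replicate 1 read 7.60, below the other saline arrays (7.95 to 9.13), and with slide as a block the difference was -0.75. Trpm5, a cation channel of taste and tuft cells, differed by -1.02 ± 0.22 (SE, adjusted p 0.017 by limma), and by -0.58 with slide as a block. The Rsph1 call was lost without silica day 28 replicate 3 (adjusted p 0.050) and the Trpm5 call without silica day 28 replicates 1 or 2 or silica day 14 replicates 1 or 3, or with normexp (-0.80).

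Chrdl2, a secreted inhibitor of bone morphogenetic proteins, was the marked rise. It was not well above background on day 14 and was at least 2.34-fold higher on day 28 (adjusted p 0.011, limma), with 5.56, 4.66 and 5.16 on the silica day 28 arrays. Saline day 28 replicate 1 read 4.03, above the other saline arrays (3.05 to 3.77), though not well above background. With normexp the Chrdl2 difference was 0.36. Day and slide cannot be told apart by this comparison for these 4 genes or for any other gene. The check rests on 1 saline array, so an unmarked gene is not shown to be free of slide.

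Most called probes had no name in the sources used here. By the same rule, the largest falls among them were at probe CUST_R2_00655 (-2.21 ± 0.47, SE) and probe A_64_P023102 (-2.10 ± 0.32, SE), and the largest rises at probe A_44_P109342 (2.33 ± 0.44, SE) and probe A_43_P15711 (2.03 ± 0.51, SE). At A_44_P109342 the silica day 28 arrays read 11.10, 10.13 and 10.76, the silica day 14 arrays 8.28, 8.56 and 8.17, and the saline arrays 8.02 to 10.22. Saline lungs thus overlapped both silica groups at this probe, and at A_43_P15711 they did so as well, with 6.77 to 9.14.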

How the data were processed

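The members and the gene lists were chosen with earlier results of these data known. Scanner files of 12 single-colour Agilent arrays held processed spot intensities, which the authors made with Feature Extraction 10.7.1.1 per the labels, corrected for background and not normalized between arrays. A deposited log2 table, quantile normalized by the authors in GeneSpring, served as an alternative. Control spots (1439 of 62972) were left out, spots of a probe were averaged, and log2 intensities were quantile normalized over 12 arrays. A probe was tested where 1 silica group or both had it well above background on every array (31970 of 51255). limma 3.58.1 in R 4.3.3 fitted 4 group means. It was tested on simulated data. Array numbers limit the precision, and 3 against 3 arrays cannot go below 0.1 in an exact two-sided permutation test. Names came from 1279 rows of a supplementary table matched by probe (1099 genes, with RefSeq GRCr8 for promoters; its columns of fold changes and p-values were not used). Each gene was read at its brightest probe. Named were the 10 largest unmarked rises and falls that were above background on all 6 silica arrays without overlap, up to 3 marked ones each way, the 3 largest and 3 smallest differences of each list (not all described), and 2 unnamed probes each way. Symbols that are placeholders were only counted. The values of 1 called gene are not reported here. The alternatives were other scaling, background correction and filters, slide or replicate number as a block, the 6 silica arrays alone, a plain t-test on each probe, and leaving out each array. Python 3.11.15, pandas 2.3.3, numpy 2.4.6, scipy 1.17.1 and matplotlib 3.10.9 made the tables and plots.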

Additional observations from a re-analysis of the deposited data

Results flagged for a closer look

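At 1 probe, CUST_R2_12802, which has no gene name in the sources used here, the day difference in silica lung and that in saline lung differed by a test of the difference itself (1.24, SE 0.13, adjusted p 0.044 by limma). The silica arrays read 9.06, 9.14 and 9.04 on day 28 and 8.36, 8.22 and 8.25 on day 14, and the saline arrays 7.82, 7.80 and 7.83 on day 28 and 8.29, 8.18 and 8.26 on day 14. Silica was thus higher and saline lower on day 28, and saline day 28 replicate 1 read the same as replicates 2 and 3.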

How the results depend on the processing

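The 953 calls of the silica day comparison became 290 with normexp background correction, 600 with probes above background on all 6 silica arrays, 3968 with no minimum fold change, 189 in a plain t-test on each probe with Benjamini-Hochberg adjustment (1035 without it), and 3 with slide as a block. Combined with the slide block, an alternative chosen after seeing the data, the stricter filter gave 3 and normexp 4. Leaving out 1 array gave 341 to 1135. The comparison of the day difference in silica with that in saline gave 1 call, 0 with 75th percentile scaling, 2 with the stricter filter, 3 with a replicate block and 4 with a slide block, and 0 to 299 leaving out 1 array, the highest without saline day 28 replicate 1. Saline day 28 replicates 2 and 3 against day 14 gave 2 calls, 1 with 75th percentile scaling, 0 with normexp, 8 with no filter, 1 with the stricter filter and 0 with a replicate block, and 0 to 13 leaving out 1 array. The slide check marked 49.0% of the calls, and 74.1% with normexp. Called members summed over the lists numbered 20, and 8 with normexp, 13 with no filter, 54 with no minimum fold change, 1 in the adjusted t-test and 0 with slide as a block, alone or combined, and 10 to 36 leaving out 1 array. The 31 called genes that the rule names kept their direction in all 767 gene and setting pairs, and 247 of these lost the call, 20 genes without silica day 14 replicate 3 and all 31 with the slide block. Correlations were 0.24, 0.12 and 0.09 between same-numbered silica arrays of the 2 days and -0.19 to 0.10 between differently numbered ones. Replicate numbers were not taken as pairs in the main fit, and with number as a replicate block 798 probes were called. Of the 805 falls, 219 were not well above background on day 28.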
